A study of Mus musculus with 8 samples.

Results

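The 7 genes described here encode the constant regions of the T cell receptor chains: Trac (alpha), Trbc1 and Trbc2 (beta), Trdc (delta), and Tcrg-C1, Tcrg-C2 and Tcrg-C4 (gamma). They were taken by name from the 32285 genes of the expression matrices. The members were chosen by the level of Tcrg-C1 in Elovl1-targeted cells of these same data, which had been seen to be high, so the values of Tcrg-C1 in cells with Elovl1 guides are given below as a description, without a test. The question was whether gamma and delta transcripts gather in the cells of single guides.

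The paper states that the donor mice were bred from Rag2/OT-I mice and Cas9 knock-in mice. It does not give the Rag2 genotype of the donors themselves. The cells were OT-I CD8+ T cells from these donors. They were transduced with a lentiviral CRISPR library against metabolic genes that also carries the CD90.1 reporter. They were transferred into mice with orthotopic KPC_OVA pancreatic tumours, an ovalbumin-expressing mouse ductal adenocarcinoma line, and CD90.1+ cells were sorted from the primary tumour at day 7 for CROP-seq, a droplet assay that reads the transcriptome and the guide of each cell. Hosts were treated with anti-PD-1 (3 libraries, replicates 1 to 3) or with IgG (1 library), and each expression library had a guide library beside it (8 samples). Where 4 values stand in a row below, they belong to replicates 1, 2 and 3 and the IgG library, in that order. The sgNT control cells, with nontargeting guides, carried the same Cas9 allele, OT-I receptor and vector, and all libraries came from treated, tumour-bearing mice. The labels do not tie libraries to animals, so the spread between libraries may be partly technical.

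A T cell joins V and J segments (and D segments in the beta and delta loci) to a constant region in its DNA, and its descendants inherit the result. Most T cells carry an alpha and a beta chain, and gamma delta T cells carry a gamma and a delta chain. The delta locus lies inside the alpha locus, between the alpha V and J segments, and a V alpha to J alpha join removes it from that chromosome. Gamma genes stay in place in alpha beta T cells and can be rearranged there. OT-I cells carry a transgenic alpha and beta chain (V alpha 2 and V beta 5, encoded by Trav14 and Trbv12 segments). Their own loci therefore need not be rearranged in the usual way. Rag2 is a gene of the recombination machinery. Whether the Rag2 genotype of the donors allowed their own loci to be rearranged was not tested.

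All 7 constant region genes lie within their rearranging loci on GRCm38. Trac is at chr14:54220521-54224206 and Trdc at chr14:54142851-54148868, both on the plus strand. Trbc1 (chr6:41538218-41539881) and Trbc2 (chr6:41546730-41548352) stand next to each other, also on the plus strand. Tcrg-C1 (chr13:19214103-19217024, plus strand), Tcrg-C2 (chr13:19304649-19307551, minus strand) and Tcrg-C4 (chr13:19344558-19352756, plus strand) belong to the gamma cluster. The beta genes are near copies, so reads could be split between them. Their coding sequences differed at 23 of 518 bases (95.6% identity), and 38.2% of the 60-base windows of Trbc1 occurred unchanged in Trbc2. The stretch of coding bases 479 to 508 is shown because it holds 7 of the differences, in capitals, by which reads of the 2 genes can be told apart.
Trbc1: tACActggtgGtgatggcTatggtcaaAaG
Trbc2: tGGCctggtgCtgatggcCatggtcaaGaA
The first 30 coding bases of the gamma genes are shown next, because Tcrg-C1 and Tcrg-C2 were identical there and Tcrg-C4 differed at 8 bases, in capitals.
Tcrg-C1: acaaaaggcttgatgcagacatttccccca
Tcrg-C2: acaaaaggcttgatgcagacatttccccca
Tcrg-C4: acaaaCgCACtgaCTcagacTtttcTccca
Tcrg-C1 and Tcrg-C2 shared 11.9% of the 60-base windows of Tcrg-C1, and Tcrg-C4 shared none with either. The windows cover whole transcripts, whereas the assay reads near the primed end, so these shares do not measure how many reads were ambiguous. Levels of Trbc1 against Trbc2, and of Tcrg-C1 against Tcrg-C2, are uncertain to an extent that was not tested.

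The guides around which the members gathered are shown as well, because the results by guide turn on them. The capitals mark the NGG protospacer-adjacent motif beside each site, and the nontargeting guides have no site.
Elovl1_gRNA2: gggcagacaatccatagtagAGG
Slc6a9_gRNA2: gtagtacatgatacccgtgaAGG
Mgat4d_gRNA2: ggaatctccaccattaacagAGG
Cs_gRNA3: actgagcaatctgatacctaAGG
Kmt2c_gRNA1: aaaaggcccattacccaatgGGG
Uxs1_gRNA1: cctcaaagtgaggactactgGGG
NonTargetingControlGuideForMouse_0030_gRNA30: gctcggaccttttagacgtc
NonTargetingControlGuideForMouse_0020_gRNA20: gcggttaccgcgaaaaccat
The Elovl1 site (chr4:118431655-118431674) lies in coding exon 7 of 8 of Elovl1, which elongates very long chain fatty acids, and the Slc6a9 site (chr4:117863768-117863787) in exon 7 of 14 of a glycine transporter gene. The Mgat4d site (chr8:83358035-83358054) is in exon 1 of 9, the site of Cs, the citrate synthase gene (chr10:128350447-128350466), in exon 3 of 11, that of Kmt2c, a histone methyltransferase gene (chr5:25314997-25315016), in exon 36 of 59, and that of Uxs1, a UDP-glucuronate decarboxylase gene (chr1:43771769-43771788), in exon 9 of 15. None of these sites lies in a receptor locus.

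Single-guide cells kept after filtering numbered 2535, 2597, 6432 and 11495, together 23059 of 56359 barcodes. Their median depth was 16829, 16325, 12084 and 6329 UMIs. Cd3d, Cd3e, Cd3g, Cd8a and Cd8b1 had a UMI in 96.5% to 100% of the cells of each library, and 24 cells held at least 10 UMIs of B cell, myeloid, epithelial or stromal markers. Library pairs shared 3 to 18 kept barcodes. Anti-PD-1 replicates 1 and 2, whose titles share a name, had a like guide make-up (r = 0.797 over the shares of cells of 276 guides), as did replicate 3 and IgG (0.698), against 0.214 to 0.248 for the other pairs. Their summed counts still differed beyond counting noise, with a chi-square per degree of freedom of 15.5 for replicates 1 and 2. It was 53.6 for replicate 3 and IgG. Technical differences between libraries can also give such values. Each was kept as 1 library, and whether replicates 1 and 2 are independent was not tested. Treatment and this division of the libraries overlap: the only IgG library stands with replicate 3.

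Each library held all 7 members, and they differed in how they were spread over cells. Levels are given in CPM, the UMIs of a gene per 1000000 UMIs of the summed cells. Trac was at 1918, 1769, 798 and 700 CPM. Trbc1 was at 842, 812, 826 and 850 CPM, and Trbc2 at 2715, 2791, 2189 and 2306 CPM. These 3 genes of the alpha and beta chains had a UMI in 89.6% or more of the cells of each library. Trac was high in replicates 1 and 2 and low in the other libraries, whereas Trbc1 was level.

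Trdc, the delta constant region, was present in every library. Its level was 144, 146, 112 and 93.5 CPM, lowest in IgG. It had a UMI in 49.0% of cells in replicate 1 (exact Clopper-Pearson 95% interval 47.0% to 51.0%), 47.6% in replicate 2 (45.6% to 49.5%), 35.2% in replicate 3 (34% to 36.3%) and 26.1% in IgG (25.3% to 26.9%). These intervals cover counting error only. With every cell thinned to 2000 UMIs, the shares were 19.5%, 20.3%, 15.4% and 13.5%, which lie closer together, with replicates 1 and 2 in the opposite order. The 163 IgG cells under 2000 UMIs were left out of all thinned values.

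The Trdc UMIs were concentrated in a part of the cells. Cells without a Trdc UMI made up 51.0%, 52.4% and 64.8% of the anti-PD-1 libraries and 73.9% of IgG. If Trdc made up the same fraction of the UMIs of every cell and counts followed a Poisson distribution, the shares would be 12.2%, 12.3%, 27.0% and 53.8%. Cells with at least 5 UMIs held 78.6%, 78.4%, 69.9% and 40.4% of all Trdc UMIs, and single cells reached 50, 48, 43 and 16 UMIs. The expected shares take the depth of each cell into account. All these shares describe the spread without a test.

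The gamma genes were rarer. Tcrg-C2 was at 6.06, 6.18, 16.9 and 11.9 CPM, in 3.75%, 3.31%, 9.47% and 4.95% of cells (thinned, 0.868%, 1.04%, 2.74% and 2.12%). Tcrg-C4 was at 2.87, 3.96, 7.52 and 5.25 CPM. Both were lowest in replicates 1 and 2, opposite to Trdc and Trac. Tcrg-C1 had 14, 13, 22 and 27 positive cells, at 0.942, 1.02, 0.350 and 0.414 CPM. Tcrg-C3, a gamma gene that is not a member, stayed at or below 0.113 CPM.

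**Figure D1:**
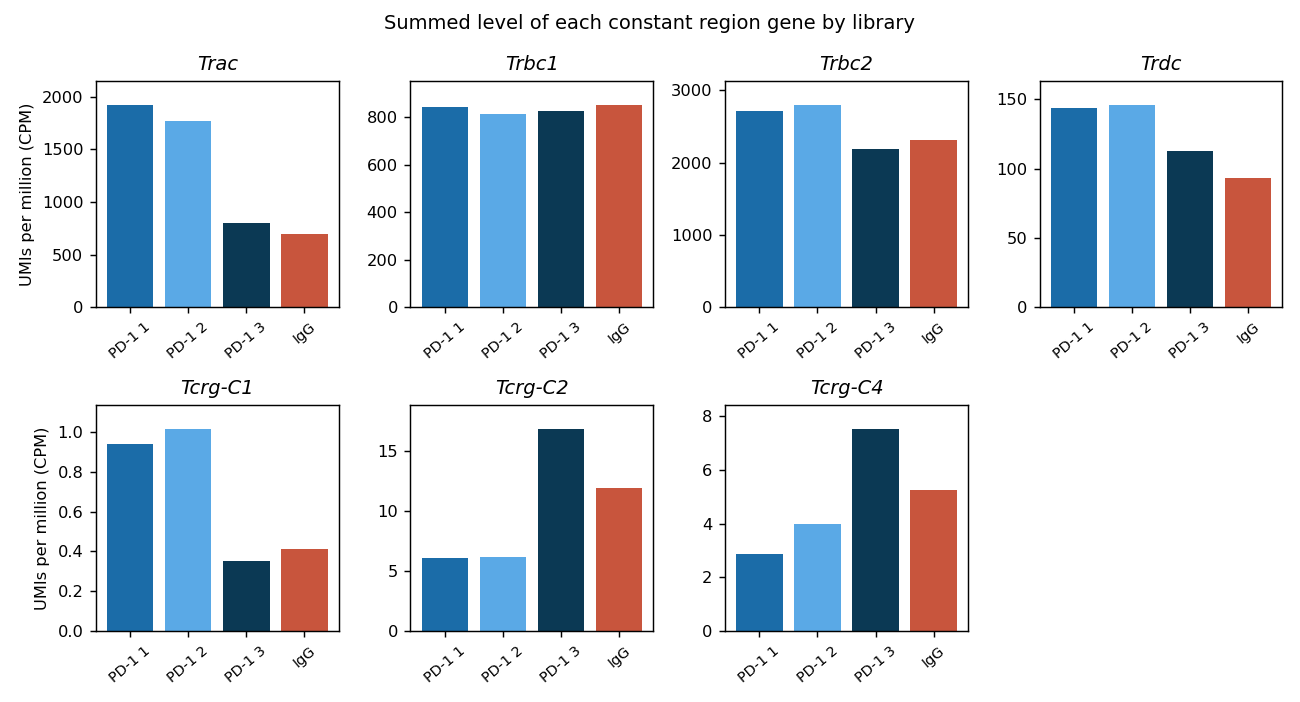
Summed level of each constant region gene in the kept single-guide cells of each library, in CPM (bars start at 0, scales differ between panels, 1 bar per library). Trac and Tcrg-C1 stand higher, and Tcrg-C2 and Tcrg-C4 lower, in anti-PD-1 replicates 1 and 2 than in anti-PD-1 replicate 3 and IgG, whereas Trbc1 is between 812 and 850 CPM in all.

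The background was read from barcodes that should lack the receptor, that is, those with markers of another cell type and no T cell marker. There were 3, 0, 1 and 5 of them, which is too few to set a background share. None held a Trdc UMI, 3 held Trac and 2 held Trbc2. Transcripts of the recombination machinery were at or near 0: Rag1 and Dntt had no UMI in any library and Rag2 had 4 UMIs in all. Of the 10 genes of a gamma delta T cell program, Maf, a transcription factor, was the most abundant, at 3.71, 3.53, 2.06 and 2.65 CPM and in 4.46%, 4.31%, 2.11% and 1.5% of cells. Il17a was at 0.184, 1.64, 0.158 and 0 CPM. Cd163l1 (0.410, 0.125, 0.0226 and 0.0244 CPM), Zbtb16 (0.348, 0.104, 0.181 and 0.0487 CPM) and Sox13 (0.145 CPM or less) were below Maf throughout. Blk, Il23r and Il1r1 were each at 0.0623 CPM or less in every library.

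Among the V segments, Trbv12-1, of the OT-I beta chain, took 98.6% of beta V UMIs. Trgv2 took 95.6% of gamma V UMIs, whereas delta V UMIs were divided among Trdv1 (37.9%), Trdv4 (28.6%) and Trdv2-2 (27.3%). Trav14 segments took 6.99% of alpha V UMIs and Trav21-dv12 alone took 13.2%. Segment counts depend on how far reads reach from the primed end, so that the share of cells with a segment UMI is no measure of how many cells express a chain.

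The first comparison was anti-PD-1 against IgG. None of the 7 members passed, and none of all 13810 genes tested did (0%), in edgeR's quasi-likelihood test with Benjamini-Hochberg adjustment over all genes. An unadjusted p under 0.05 was reached by 282 genes, and DESeq2 called 5 genes, none of them a member. Trdc had an anti-PD-1 mean of 134 ± 18.6 CPM (SD, n = 3) and an IgG level of 93.5 CPM, which is a log2 difference of 0.53 ± 0.20 (SE, adjusted p = 0.987 with edgeR). For Trac the values were 1495 ± 608 CPM against 700 CPM (log2 1.11 ± 0.52, adjusted p = 0.987 with edgeR). The fit takes the spread of the single IgG library to be that of the other 3. Without anti-PD-1 replicate 3 the fit, which then sets replicates 1 and 2 against IgG, called 5 members, Tcrg-C1 among them, where 24.9% of all genes were called. With a term for the shared name it called Tcrg-C2 and Tcrg-C4 (2 members, where 2.05% of all genes were called), both then higher with anti-PD-1, a contrast that rests on replicate 3 against IgG, 1 library each.

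The libraries differed far more along the division by name. Replicates 1 and 2 against replicate 3 and IgG, a comparison added after the data were seen, gave 5 of the 7 members past the threshold in edgeR, Tcrg-C1 among them, where 29% of all 13275 genes passed (14.5% higher and 14.5% lower). Trac was 1.32 ± 0.11 higher on the log2 scale (SE, adjusted p = 3.59e-06) and Trdc 0.52 ± 0.09 higher (adjusted p = 0.00118). The difference of Tcrg-C1, 1.38 ± 0.28 higher, is a description, because 5 of its 14 positive cells in replicate 1 and 8 of 13 in replicate 2 carried the Elovl1 guide behind the choice of members. Tcrg-C2 fell by 1.21 ± 0.14 (adjusted p = 8.26e-05) and Tcrg-C4 fell by 0.88 ± 0.19 (adjusted p = 0.00465), which did not pass without replicate 1 (-0.64). Trbc1 differed by 0.01 ± 0.09 and Trbc2 by 0.32 ± 0.11 (adjusted p = 0.0511 with edgeR). Trbc2 passed with DESeq2 (0.32), without the filter on low counts (0.30), without cells with other cell type markers (0.32) and with at least 5 guide UMIs (0.41). It did not pass with RLE scaling or among sgNT cells. The 2 groups of libraries do not overlap for Trac, Trdc, Tcrg-C1, Tcrg-C2, Tcrg-C4 or Trbc2. How many of all genes show the same was not counted, so this does not set the members apart. Depth moved with this division, and its part in the result was not tested. The fit takes each library as independent, which was not tested either.

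Cells were next given to 9 states by marker lists that hold none of the members. A state was assigned to 17907 of 23059 cells, of which 1735 lay within 0.1 of the cut, and each state was compared with the mean of the others in 1 fit over sums per state and library. Of the 63 pairs of member and state, 35 passed in edgeR (18 higher, 17 lower, with 1 of Tcrg-C1 counted), where 36.2% of all pairs of gene and state passed. Among sgNT cells alone, which are fewer, 5 members could be tested and 13 of their 45 pairs passed (13.2% of all pairs of gene and state). A state differs from the others in many genes, and the share of 10765 genes called in either direction was 52.6% in G1/S, 51.8% in Precursor-like, 46.3% in G2/M, 41.9% in Cytokine-producing, 40.8% in Exhausted-like, 37.5% in Memory-like, 22.8% in NK-like, 18.2% in Interferon-responding and 13.6% in Granzyme C-high cells.

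Trdc stood highest in Memory-like cells, the state of Klf2, S1pr1 and Il7r. It was at 235, 197, 194 and 118 CPM there, above the library's own level in every case. The log2 difference was 0.57 ± 0.09 (SE, adjusted p = 1.80e-06 with edgeR). Interferon-responding cells came next, at 182, 247, 146 and 123 CPM (log2 0.48 ± 0.10, adjusted p = 0.000382), and the 2 states could not be ordered, with Memory-like the higher in 2 of 4 libraries. Trdc fell in G1/S by 0.37 ± 0.09 (adjusted p = 0.00054) and in the Granzyme C-high state by 0.44 ± 0.12 (adjusted p = 0.013). In the last it was at 67.2, 126, 85.6 and 75.5 CPM, on sums of 31, 40, 170 and 332 cells. The other 5 states did not pass, though NK-like did in thinned cells (0.31 against 0.16 over all UMIs), with at least 5 guide UMIs (0.44), at a state score of 1.5 (0.28) and without the filter on low counts (0.15), G2/M did in 3 alternatives (-0.14 to -0.25) and Cytokine-producing in 1 (-0.24). Among sgNT cells alone none of these 4 differences of Trdc passed (0.28, 0.37, -0.27 and -0.32 in the order given), in thinned cells Interferon-responding did not (0.27), and Granzyme C-high did not without anti-PD-1 replicate 1 (-0.33) or 3 (-0.47).

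Tcrg-C2 followed another order. Its means over the 4 libraries were 16.2 ± 5.63 CPM (SD) in Interferon-responding, 15.7 ± 1.92 in Granzyme C-high and 15.3 ± 8.87 in NK-like cells, the state of Tyrobp and Fcer1g, and these did not differ beyond their spread. In Precursor-like cells, the state of Tcf7 and Slamf6, it was at 2.01, 2.59 and 7.98 CPM in the anti-PD-1 replicates and 4.31 CPM in IgG. This was a fall of 1.43 ± 0.16 on the log2 scale (adjusted p = 1.40e-09), and -1.46 with an adjusted p of 0.0575 among sgNT cells alone. Tcrg-C2 rose in NK-like cells (log2 0.66 ± 0.13, adjusted p = 0.000289), at 9.41, 6.51, 25.3 and 20.1 CPM, but among sgNT cells alone this difference was -0.20 with an adjusted p of 0.888, and with at least 5 guide UMIs it was 0.69 with an adjusted p of 0.141. Tcrg-C4 fell in Precursor-like cells too (by 1.19 ± 0.24, adjusted p = 6.24e-05) and rose in NK-like (0.65 ± 0.20, adjusted p = 0.0166) and Granzyme C-high cells (0.91 ± 0.28, adjusted p = 0.0232). Neither rise of Tcrg-C4 passed without replicate 3 (0.30 in NK-like and 0.72 in Granzyme C-high), without IgG (0.66 and 0.80) or with at least 5 guide UMIs (0.05 and 0.55), and the rise in NK-like cells did not pass with DESeq2 (0.54). The value of Tcrg-C1 in G1/S is a description for the same reason as between the libraries. It was 1.14 ± 0.48 higher, where the 331 G1/S cells of replicate 1 held 28 of its UMIs, and 0.02 higher without that replicate.

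The alpha and beta genes did not follow 1 order over the states. Trac was highest in Exhausted-like cells, the state of Pdcd1, Havcr2 and Tox, at 2694, 2476, 1067 and 892 CPM (log2 0.42 ± 0.03, adjusted p = 4.07e-12). Trbc1 was highest there as well, at 1034 ± 33.9 CPM (SD, n = 4 libraries), and lowest in the Granzyme C-high state, at 644 ± 92.6 CPM. Trbc2 ranged from 3040 ± 351 CPM in Interferon-responding to 2006 ± 385 CPM in Granzyme C-high cells. Of 26 other genes of the receptor complex and its proximal signalling (Cd3 chains, Lck, Zap70, Lat and others), 22 rose and none fell in Exhausted-like cells (median log2 0.30, against 0.01 over all genes). In the Granzyme C-high state 2 rose and 14 fell, and in G1/S 1 rose and 18 fell, and in both states Trac, Trbc1 and Trbc2 fell too. Of these falls, Trac in the Granzyme C-high state did not pass in thinned cells (-0.16) or among sgNT cells (-0.14), Trbc2 there did not among sgNT cells (-0.30), nor did Trbc1 in G1/S (-0.16). In Precursor-like cells 9 rose and 11 fell, while Trbc1 (0.23 ± 0.04) and Trbc2 (0.28 ± 0.03) rose and Trac did not pass (-0.07 ± 0.04). Among sgNT cells this rise of Trbc1 did not pass (0.18).

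Genes whose levels moved most like a member were taken over the 36 sums of state and library, centred within each library, out of 8514 genes. Trac moved most like Cd3e (r = 0.927), Ikzf3 and Cd3d, and Tcrg-C2 like Metrnl (0.873), its V segment Trgv2 (0.840) and Itga1 (0.830). Trdc was nearest to Mef2d (0.850), Smap1 and Ppm1k, with no receptor gene among the 3. Trbc1 was nearest to Sec62 (0.896) and Trbc2 to Ipcef1 (0.884), whereas the best matches of Tcrg-C1 (Dis3l, 0.769) and Tcrg-C4 (Phf12, 0.746) were lower. The sums of 1 library share its cells and depth, and these values are descriptions.

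**Figure D2:**
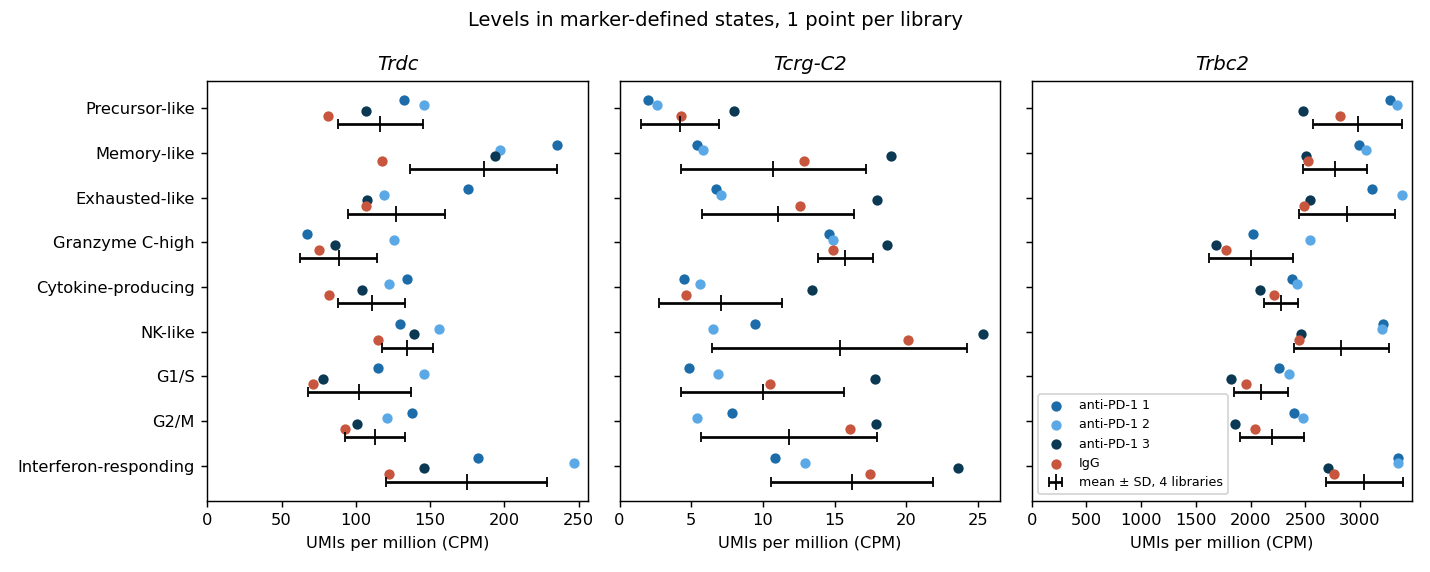
Levels of Trdc, Tcrg-C2 and Trbc2 in each marker-defined state, in CPM, with 1 coloured point per library and the mean ± SD of the 4 libraries as a black mark. Trdc is highest in Memory-like and Interferon-responding cells and Tcrg-C2 lowest in Precursor-like cells (4.22 ± 2.69 CPM), with the libraries set apart within each state.

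Whether cells of 1 guide resembled each other more than cells of different guides was measured by the chi-square of cells with a UMI over guides with at least 20 cells (30, 22, 151 and 246 guides), divided by its degrees of freedom, on cells thinned to 2000 UMIs. A value of 1 is what independent cells give, and the median of all background genes was 0.989, 0.979, 1.01 and 1.0. Trdc had 3.45, 3.0, 2.03 and 1.28, a mean of 2.44 ± 0.97 (SD). By mean rank over the libraries it stood first of 7665 genes.

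Other members stood beside it. Trbc1 came second by mean rank (2.99, 3.02, 1.59 and 1.20) and Tcrg-C2 was the third (2.60, 1.89, 1.37 and 1.22). Ifi27l2a and Id2 followed, which are no receptor genes. Trac (1.26, 0.655, 1.22 and 1.13) and Trbc2 (0.741, 0.762, 1.24 and 1.02) lay close to the background. Tcrg-C1 (3.44, 6.79, 1.83 and 1.36) and Tcrg-C4 (1.76, 2.55, 1.13 and 1.0) rest on few cells. Tcrg-C1 is also the gene whose pattern drew up the list.

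Among the guides that target nothing, Trdc stood out in replicate 1 and less so elsewhere. Over 3, 3, 18 and 30 nontargeting guides Trdc had 6.15, 2.24, 1.40 and 1.05, with 0.334%, 8.75%, 11.1% and 38.9% of the background genes above it, and by mean rank it stood 46th of 6627 genes. The first 4 were Ifi214, Dynll1, Jdp2 and Dnmt3a. Trbc1 (0.980, 1.36, 0.801 and 1.19) stood at place 1443 there. Tcrg-C2 had no UMI in the thinned nontargeting cells of replicates 1 and 2, and its values in replicate 3 and IgG, 1.02 and 0.920, were near the background medians of 0.956 and 0.977. In all guides together, the value of every member but Trac and Trbc2 was larger in replicates 1 and 2 than in IgG. Replicates 1 and 2 have few guides with many cells, so that the libraries are not on a like footing.

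**Figure D3:**
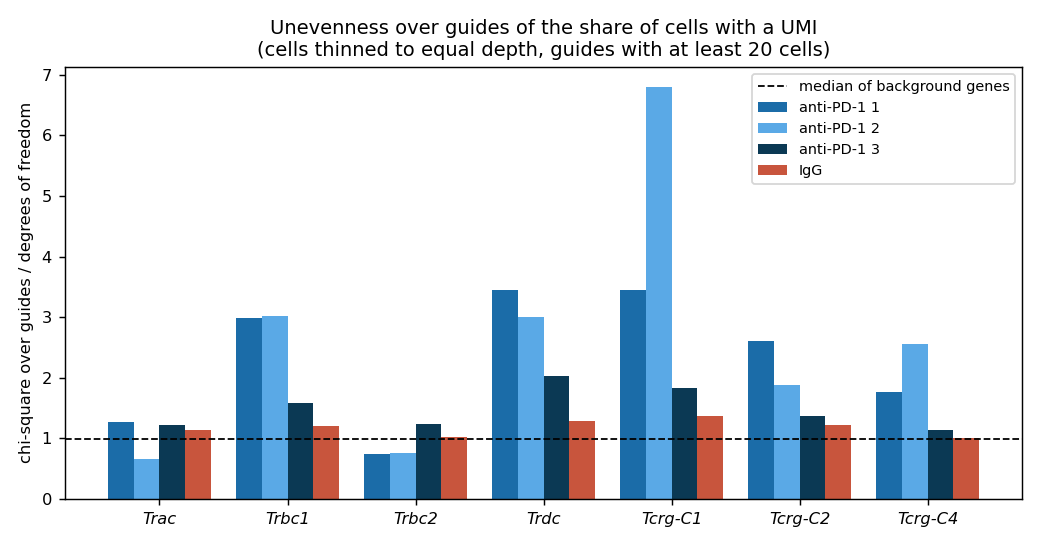
Chi-square over guides divided by its degrees of freedom for the share of cells with a UMI of each member, 1 bar per library, on cells thinned to 2000 UMIs and guides with at least 20 cells; the dashed line marks the median of the background genes. Trdc, Trbc1, Tcrg-C1 and Tcrg-C2 stand above the line in all 4 libraries, and Trac and Trbc2 near it.

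Shares of Trdc-positive cells ranged widely between guides. They ran from 13.0% to 85.7% (median 47.7%) in replicate 1, 18.8% to 78.9% (52.4%) in replicate 2, 6.67% to 73.9% (36.0%) in replicate 3 and 6.25% to 58.1% (25.6%) in IgG. The highest share in replicates 1 and 2 belonged to a control guide, NonTargetingControlGuideForMouse_0030_gRNA30. It had Trdc in 54 of 63 cells (exact interval 74.6% to 93.3%) and in 82 of 104 cells (69.7% to 86.2%). In the other 2 libraries, which did not choose it, it had 3 of 10 cells (6.67% to 65.2%) and 10 of 28 cells (18.6% to 55.9%). The thinned shares of this guide were 41.3%, 32.7%, 10.0% and 14.3%.

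Other leading guides were high in some libraries and not in others. Mtm1_gRNA2 had Trdc in 27 of 33 and 15 of 17 cells of replicates 1 and 2, in 13 of 25 cells of replicate 3 and in 10 of 44 cells of IgG. Slc1a6_gRNA2 had 21 of 26, 23 of 35, 13 of 38 and 11 of 45 cells. Kmt2c_gRNA3 had 13 of 17, 10 of 16, 24 of 35 and 5 of 43 cells, above the share of the library in the 3 anti-PD-1 replicates and below it in IgG. Mgat4d_gRNA2 led in replicate 3 with 17 of 23 cells (51.6% to 89.8%) and had 1 of 7, 2 of 11 and 9 of 37 cells elsewhere. Cs_gRNA3 led in IgG with 36 of 62 cells (44.8% to 70.5%), against 5 of 8 cells in replicate 2 and 5 of 14 cells in replicate 3. Mgat4d_gRNA3, to the same target as Mgat4d_gRNA2, had 28 of 41 cells in replicate 3 and 5 of 31 cells in IgG.

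Tcrg-C2 gathered around other guides. Slc6a9_gRNA2 led in replicates 1 and 2 with 13 of 42 cells (exact interval 17.6% to 47.1%) and 8 of 44 cells (8.19% to 32.7%), and had 2 of 19 and 1 of 39 cells in replicate 3 and IgG. In replicate 3 the lead belonged to NonTargetingControlGuideForMouse_0020_gRNA20, with 24 of 63 cells (26.1% to 51.2%), against 4 of 28 cells in IgG. Tcrg-C4 led in replicate 3 with NonTargetingControlGuideForMouse_0014_gRNA14, in 6 of 23 cells.

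Trbc1 levels differed between guides by a wide margin. They ran from 289 to 1593 CPM over guides in replicate 1 and from 269 to 1691 CPM in IgG. Gnpat_gRNA3 was at 1326, 1574, 630 and 685 CPM, high in replicates 1 and 2. Pgam2_gRNA2 was at 595, 381, 1785 and 815 CPM, high in replicate 3, and Abcc3_gRNA1 at 1110, 586, 822 and 1691 CPM, high in IgG. Elovl1_gRNA3 was at 1482, 1453, 1188 and 1231 CPM, above the library's level in all 4. Over guides, the share of Trdc-positive cells and the Trbc1 level had r of -0.335, -0.124, -0.177 and -0.173 (30, 22, 151 and 246 guides, which share a library and its depth).

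Guides with at least 20 cells in both of 2 libraries were set side by side. Between replicates 1 and 2, which share 14 such guides, the shares of Trdc-positive cells had r = 0.843, where the median of 8416 genes was 0.110 and 3 genes lay above Trdc. Tcrg-C2 had 0.902, with 1 gene above it. Trbc1 levels had 0.903, Trac 0.106 and Trbc2 0.280. Replicate 3 and IgG shared 149 guides, and there Trdc had -0.0884, Tcrg-C2 0.140 and Trbc1 0.0146. The other 4 pairs of libraries gave -0.238 to 0.145 for Trdc, -0.315 to 0.337 for Tcrg-C2, 0.106 to 0.564 for Trbc1 (highest between replicates 2 and 3) and 0.165 to 0.506 for Trbc2 (highest between replicate 1 and IgG). The guide make-up of replicate 3 and IgG was alike too, but these libraries differ in treatment and in median depth (12084 and 6329 UMIs). The correlations of the 2 pairs are therefore not on a like footing. Whether replicates 1 and 2 hold cells of the same founders was not tested.

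**Figure D4:**
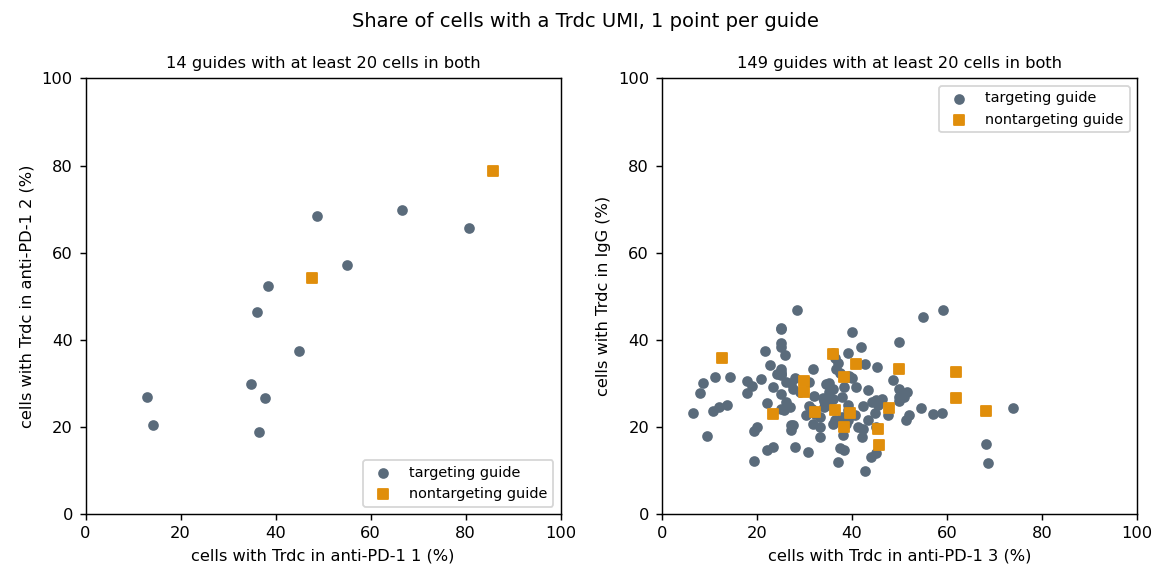
Share of cells with a Trdc UMI for each guide with at least 20 cells in both libraries, 1 point per guide, both axes in percent from 0 to 100; squares are nontargeting guides. The 14 guides of anti-PD-1 replicates 1 and 2 follow a line (left), and the 149 guides of anti-PD-1 replicate 3 and IgG do not (right).

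Tcrg-C1 was found in the cells of Elovl1_gRNA2 above all, which is the observation that drew up the list and carries no test here. It had a UMI in 5 of 27 cells of replicate 1 (exact interval 6.30% to 38.1%) and 8 of 33 cells of replicate 2 (11.1% to 42.3%). In replicate 3 it was in 0 of 10 cells, which allows a share of up to 30.8%, and in IgG in 0 of 28 cells, which allows up to 12.3%. All 5 and all 8 Tcrg-C1-positive cells of this guide held Trdc. Trdc was also in 13 of 22 and 15 of 25 of its cells without Tcrg-C1. Of the Tcrg-C1-positive cells, 4 of 5 and 7 of 8 held Tcrg-C4, whereas none held Tcrg-C2. Their summed Trdc level was 1030 and 798 CPM, against 245 and 153 CPM in cells of the same guide without Tcrg-C1. They were spread over states: 3 of the 5 were in G1/S, and the 8 fell in 5 states and the unassigned group. Among all kept cells, 11 of the 26 cells with at least 2 UMIs of Tcrg-C1 carried this guide and no other guide had more than 1 in a library.

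Cells with at least 2 UMIs of Tcrg-C1 were then compared with cells without any gamma constant UMI, as sums per library (7, 7, 7 and 5 positive cells). The gamma genes set these groups and were not tested. Because 11 of the 26 positive cells belong to the guide behind the choice of members, the values over all cells are descriptions, and the test is the fit without Elovl1_gRNA2. In that fit, with library as a block and 2, 1, 7 and 5 positive cells left, 17 of 11266 genes passed in edgeR (0.151%), 6 higher with Trgv2 counted (0.0533%) and 11 lower (0.0976%), and 1 of the 4 members tested was among them. With the guide, the fit called 58 of 11311 genes (0.513%), 13 higher (0.115%) and 45 lower (0.398%), and with RLE in place of TMM scaling 59 (0.522%), of which 31 were higher (0.274%) and 28 lower (0.248%). The median over all genes was -0.43 on the log2 scale in the first fit and -0.19 in the second (-0.06 with RLE). The CPM of single genes in this comparison and in that of Trdc-positive cells are scaled by edgeR's normalisation factors.

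Trdc was higher in the Tcrg-C1-positive cells. It was at 861, 773, 364 and 102 CPM in positive and 144, 150, 117 and 98.8 CPM in negative cells of replicates 1, 2 and 3 and IgG, a gap that was wide in replicates 1 and 2 and nearly absent in IgG. The log2 difference was 2.04 ± 0.17 (SE) over all cells, and 1.43 ± 0.30 (adjusted p = 0.00212) without Elovl1_gRNA2. Over all cells it was 0.50 with at least 5 guide UMIs per call and 1.75 with at least 3 UMIs of Tcrg-C1, where neither reached the threshold. Trbc1 was at 900, 904, 883 and 910 CPM in negative and 540, 483, 380 and 284 CPM in positive cells, lower in all 4 libraries. The difference was -1.03 ± 0.15 over all cells and -1.07 ± 0.28 without Elovl1_gRNA2, which did not pass (adjusted p = 0.0737). Trac (-0.60 ± 0.26, adjusted p = 0.617) and Trbc2 (-0.39 ± 0.24, adjusted p = 0.757) did not pass without it either. Trgv2 was at 150 against 3.29 CPM in replicate 3 and 20.3 against 3.22 CPM in IgG, and had no UMI in positive cells of replicates 1 and 2. Cells with a gamma constant UMI had been left out of the negative group, which lowers Trgv2 there, so that it is given without a test.

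The other named genes of this comparison, chosen on the fit over all cells, are described by its differences. Ccr9, a chemokine receptor, was 2.11 ± 0.39 higher, and Stmn1 and Pclaf, genes of proliferating cells, were 0.74 and 0.73 higher. Gzmf, a granzyme gene, had no UMI in the positive cells, at least 14.5-fold lower over all libraries against a floor of 3 counts. Gzmd (-3.21) and Gzmc (-2.21), of the same family, were lower too. Granzyme C-high cells made up only 1.22%, 1.54%, 2.64% and 2.89% of the libraries. So few positive cells may hold hardly any of them, which a bound that takes UMIs as independent leaves out of account. Gpr183 (-2.51), Slamf6 (-2.19), Spp1 (-2.13), Fam169b (-1.89), Phactr2 (-1.77) and Gm156 (-3.81) were lower, and Penk was at least 3.61-fold lower. Of these genes, Gzmf (adjusted p = 1.67e-05) and Gzmc (adjusted p = 3.87e-06) passed in edgeR without Elovl1_gRNA2, on sums of only 2, 1, 7 and 5 positive cells. Of the 26 receptor complex genes, the fit over all cells called Cd5 (-1.70 ± 0.32) and Cd6 (-1.17 ± 0.27), both surface receptors that dampen receptor signalling, and without the guide neither passed (-1.5 ± 0.47 and -0.96 ± 0.42, adjusted p = 0.292 and 0.617).

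Trdc was common enough for the same comparison on many more cells, which was added after the data were seen. Cells with at least 2 Trdc UMIs (960, 956, 1554 and 1678) were set against cells with none (1293, 1362, 4170 and 8493). In edgeR 179 of 11776 genes passed (1.52%), 117 higher (0.994%) and 62 lower (0.526%), and 3 of the 5 other members tested were among them. The positive cells were deeper, which choosing by UMIs brings about, so that values of the members from cells thinned to 2000 UMIs stand beside the main ones.

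Trbc1 was lower in Trdc-positive cells of every library. It was at 653, 614, 673 and 710 CPM in positive and 1007, 987, 899 and 904 CPM in negative cells of replicates 1, 2 and 3 and IgG, and the 2 sets of values do not overlap. The log2 difference was -0.51 ± 0.04 (SE, adjusted p = 5.97e-07), and -0.33 (adjusted p = 5.25e-16) in thinned cells. Trbc2, its near copy, was at 2702, 2874, 2204 and 2313 against 2682, 2827, 2168 and 2303 CPM (0.02 ± 0.01, adjusted p = 0.521), but passed in thinned cells (0.08 ± 0.02, adjusted p = 0.00884). Trac had 0.07 ± 0.02 (adjusted p = 0.0449), and 0.07 with an adjusted p of 0.192 in thinned cells. It passed neither among sgNT cells nor without replicate 1, replicate 3 or IgG, nor at a limit of 1 or 3 UMIs. Tcrg-C4 rose by 0.88 ± 0.17 (adjusted p = 0.0123), at 4.0, 7.76, 9.20 and 7.34 against 1.57, 1.56, 6.73 and 4.88 CPM. This did not pass in thinned cells (0.46, adjusted p = 0.574), among sgNT cells (0.35) or without IgG (1.003, adjusted p = 0.113). Tcrg-C2 had 0.28 ± 0.09 (adjusted p = 0.158), and 0.30 (adjusted p = 0.585) in thinned cells.

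Alpha V segments were rarer in the same cells. Of 13 Trav segments tested, 8 fell and none rose, with a median log2 difference of -1.39 against 0.00 over all genes. Trav3-3 fell by 3.59 ± 0.30 (adjusted p = 1.86e-06 with edgeR): it was in 14 of the Trdc-positive cells (0.272%) and 271 of the negative ones (1.77%). All its 301 cells, those with 1 Trdc UMI included, came from 193 combinations of guide and library. Trav4-4-dv10 (-3.57), Trav13-1 (-2.28), Trav5-4 (-1.98), Trav16 (-1.53), Trav17 (-1.49), Trav19 (-1.39) and Trav6-7-dv9 (-1.17) fell as well. Of 3 delta V segments, Trdv4 (1.11 ± 0.15, adjusted p = 0.000413) and Trdv2-2 (1.0 ± 0.14, adjusted p = 0.000452) rose, and Trdv1 had -0.25 (adjusted p = 0.700).

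Summed over the 118 Trav segments that do not double as delta segments, the level, in CPM without edgeR's factors, in Trdc-positive cells was 6.63, 3.96, 5.63 and 5.90 CPM, against 19.0, 16.9, 19.0 and 16.8 CPM in negative cells. The thinned shares of cells with such a UMI were 1.15%, 0.314%, 1.03% and 1.19% against 3.33%, 3.45%, 3.57% and 3.33%. The groups do not overlap on either scale.

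Genes outside the receptor loci changed as well. Genes of mitosis were among the rises, Ube2c (0.33), Cenpf (0.29), Aurka (0.28), Ccnb2 (0.27), Prc1 (0.26), Cdkn3 (0.26) and Ccnb1 (0.25), but none of them passed in thinned cells, where Ube2c had 0.03 and Cenpf -0.03. Gzmd fell by 0.85 (1.21 in thinned cells), Gzmc by 0.40, Ccl1, a chemokine, by 0.34 and Xcl1, another, by 0.22, all of which passed in thinned cells too. Of the 26 receptor complex genes, Cd6 alone fell (-0.18 ± 0.03, adjusted p = 0.000904) and none rose.

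Barcodes with exactly 2 called guides were described apart, since a founder that took up 2 guides passes the pair on. There were 366, 290, 1040 and 1747 such barcodes, and pairs seen in at least 8 barcodes numbered 1, 1, 0 and 7. Whether a barcode with 2 guides held 1 cell or 2 was not tested. The 7 recurrent pairs of the IgG library covered 133 barcodes and lay at either end for Trdc. Kmt2c_gRNA1 with Uxs1_gRNA1 had Trdc in 20 of 21 barcodes (exact interval 76.2% to 99.9%), Pigz_gRNA1 with Uxs1_gRNA1 in 7 of 8, and Keg1_gRNA1 with Ndufv3_gRNA1 in 14 of 17. Hpse_gRNA2 with Mgat4d_gRNA1 had it in 1 of 54 (upper limit 9.89%).

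The 3 remaining pairs had no Trdc UMI at all. They were Duox2_gRNA2 with Uxs1_gRNA1 (0 of 13, upper limit 24.7%), Man1a2_gRNA2 with Slc43a1_gRNA2 (0 of 11, upper limit 28.5%) and NonTargetingControlGuideForMouse_0013_gRNA13 with Uxs1_gRNA1 (0 of 9, upper limit 33.6%). Uxs1_gRNA1 was thus part of pairs at both ends. Alone, it had Trdc in 41 of 96 IgG cells, Kmt2c_gRNA1 in 37 of 79 and Hpse_gRNA2 in 15 of 62. Median depth was 4853 to 8027 UMIs over the pairs, and the 2 deepest, Duox2_gRNA2 with Uxs1_gRNA1 and Keg1_gRNA1 with Ndufv3_gRNA1, lay at opposite ends of the Trdc shares. The chi-square per degree of freedom of Trdc over the 7 pairs was 18.1, second of 9640 genes (first Rpl39l, 22.2; median 1.07), without thinning.

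Trbc1 also differed between the pairs. It was at 487, 358 and 410 CPM in the 3 pairs with most Trdc, at 1531 CPM in Hpse_gRNA2 with Mgat4d_gRNA1, and at 320, 889 and 1809 CPM in the pairs without Trdc. Low Trbc1 was therefore found with and without Trdc. In replicates 1 and 2 the same pair recurred, Duox2_gRNA1 with G6pc_gRNA3, with Trdc in 1 of 8 and 2 of 13 barcodes. Tcrg-C1 had no UMI in the recurrent pairs of IgG, and Tcrg-C2 was in 2 of 9 barcodes at most.

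**Figure D5:**
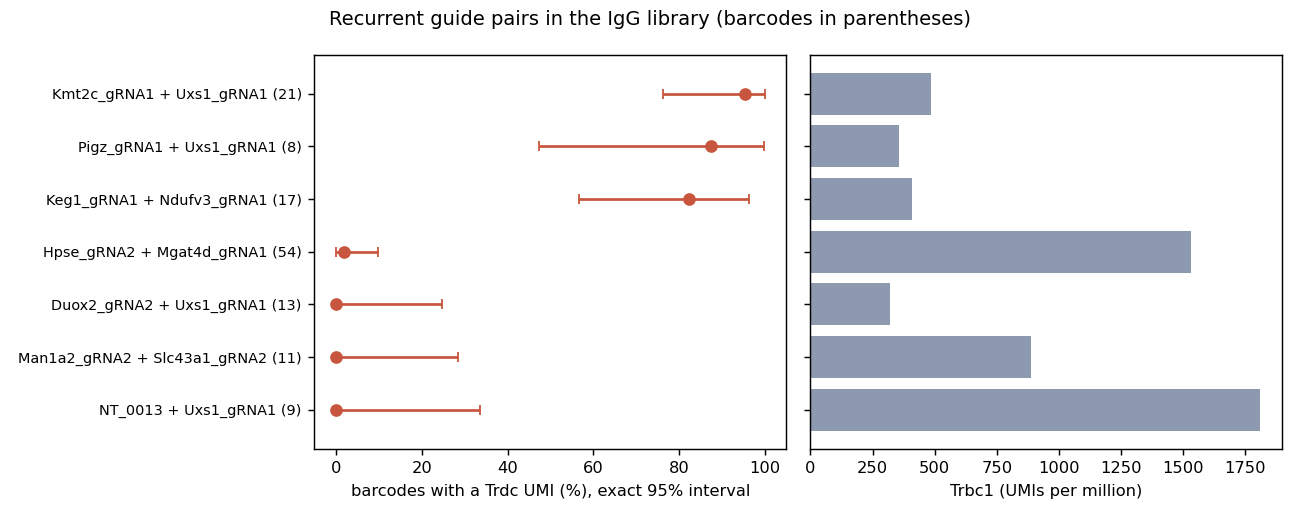
Recurrent pairs of guides in barcodes with exactly 2 called guides of the IgG library: share of barcodes with a Trdc UMI, in percent with its exact 95% interval (left), and Trbc1 level in CPM (right, bars start at 0), with the number of barcodes in parentheses. In 3 pairs 82.4% or more of the barcodes hold Trdc, and in the other 4 at most 1.85% do.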

How the data were processed

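Raw UMI counts for each barcode, by gene and by guide, were deposited as matrices, which the authors made with Cell Ranger 3.1.0 against mm10 (the submitters' processing notes also name R 3.6.3 and Seurat). The annotation release and the strand setting are not given in the sources used here. Guide calls were the deposited ones. Each library's sum of counts over kept cells was 48821477, 48182760, 88543446 and 82120349 UMIs (replicates 1 to 3 of anti-PD-1, then IgG). Barcodes with exactly 1 guide were kept when their UMI count was, in log10, at most 3 median absolute deviations away from the median of its library and mitochondrial genes held at most 10% of it. Doublets were treated only by removing barcodes with more than 1 guide, and those with exactly 2 guides were described apart.

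States were assigned by the highest marker z score within a library, if at least 1. Counts were summed per library, state or cell group and fitted with edgeR 4.0.16 (filterByExpr, TMM, quasi-likelihood test, adjusted p under 0.05 over all genes; limma 3.58.1, R 4.3.3), with DESeq2 1.42.0 as an alternative; library was a block except in comparisons between libraries. State sums needed 10 cells. The fits were tested on simulated data. Shares and figures used matplotlib 3.10.9, pandas 2.3.3 and scipy 1.17.1 with numpy 2.4.6 under Python 3.11.15. Thinning drew 2000 UMIs per cell. Background genes of the guide chi-square had a UMI in 1% to 90% of cells. CPM are UMIs per 1000000 of the summed counts (totals scaled by edgeR's factors for single genes of the positive-cell comparisons). By 3 counts, 0 positive cells in a whole library leave room for 0.0261% of cells (IgG) to 0.118% (replicate 1).

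The members, lists and tests were chosen with earlier results of these data known. Named genes were the members and, in the comparisons of positive cells, up to 10 rises and 10 falls with a mean log2 CPM above 4 and the same direction in every library; the main rises of that kind numbered 4 for Tcrg-C1. The comparisons by shared library name and of Trdc-positive cells were added after the data were seen. Coordinates are 1-based and come from GENCODE M21 (GRCm38, the build of mm10), and coding sequences from its transcripts.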

Additional observations from a re-analysis of the deposited data

Results flagged for a closer look

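The comparisons used only barcodes with a called guide, yet barcodes without one held the same transcripts, above the share that a count of 0 allows. Trdc had a UMI in 44.5%, 41.9%, 31.1% and 22.5% of the barcodes without a guide, with anti-PD-1 replicates 1 to 3 before the IgG library. Tcrg-C1 had one in 0.522%, 0.673%, 0.364% and 0.213% of them, and Tcrg-C2 in 5.13%, 4.39%, 8.21% and 4.30%. The order of the libraries was that of the single-guide cells for Trdc, and replicate 3 again had the highest Tcrg-C2. These barcodes passed the same depth and mitochondrial limits (5559, 5946, 3848 and 6578 barcodes), and whether they carried the vector was not tested.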

How the results depend on the processing

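No paired analysis was possible because anti-PD-1 and IgG share only 1 replicate number. Of the members called between anti-PD-1 and IgG (0), leaving out replicates gave 0 to 5 (5 without anti-PD-1 replicate 3, where 24.9% of all genes passed) and the term for the shared name 2, with Tcrg-C2 at 0.50 and Tcrg-C4 at 0.52 (both below 0 without it). By library name, 4 to 6 members passed when a library was left out, in fits that called 13.5% to 28.2% of all genes. Of 63 pairs of member and state, 35 passed, against 13 of the 45 tested in sgNT cells alone (13.2% of all genes' pairs), where Tcrg-C2 in NK-like cells was -0.20, and 28 to 34 of the 54 or 63 tested without a library (27.6% to 32.2%). Genes called in Tcrg-C1-positive cells (58) numbered 8 with DESeq2, 136 with at least 5 guide UMIs, 98 with at least 1 UMI and 11 with at least 3, 17 without Elovl1_gRNA2 and 28 (without anti-PD-1 replicate 2) to 61 without a library. Genes called in Trdc-positive cells (179) numbered 83 with DESeq2, 427 without the low-count filter, 37 in sgNT cells, 100 with at least 5 guide UMIs, 114 with at least 1 UMI, 94 in thinned cells and 56 (without IgG; 110 without anti-PD-1 replicate 1) to 231 without a library. Trbc1 passed in all 14 alternatives of that comparison. The mean chi-square per degree of freedom of Trdc over guides (2.44) was 3.68 without thinning, 3.86 with at least 2 UMIs and 2.10 to 2.83 without a library. With at least 5 guide UMIs it was 2.47, 5.20, 0.816 and 1.28 by library (4, 4, 12 and 64 guides), below the background median of 0.934 in anti-PD-1 replicate 3. In each case the cause was not tested, apart from the fewer cells or libraries some alternatives leave. The Tcrg-C1 comparison among sgNT cells was not run, since 2 libraries had no positive cell, and DESeq2 gave no adjusted p for Tcrg-C4 in Trdc-positive cells. Few cells limit the precision of the gamma genes: Tcrg-C1 rests on 13 to 27 cells a library.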
